A study of Homo sapiens with 9 samples.

Results

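The replication-dependent histone genes are described here in cultures of the human embryonic stem cell line H9 on the way to neuroepithelium. They were taken by name from the table of raw counts: protein-coding genes called H1-1 to H1-5, or H2AC, H2BC, H3C or H4C with a number, most of them known before as HIST1 to HIST4. Of 62710 genes in the table, 68 have such a name and 58 held at least 10 counts over the 9 libraries; of the other 10, 3 had no count at all. The 58 comprise 5 genes of the linker histone H1, 15 of H2A, 16 of H2B, 9 of H3 and 13 of H4. By the GENCODE v29 annotation of GRCh38, 45 lie in the large histone cluster at 6p22, 7 at 1q21, 2 at 1q42 and 1 at 12p12, and 3 (H2AC18, H2AC19 and H3C2) were not found in v29.

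All cultures carried the wild-type (WT) genotype and spent 72 h in mTeSR1 on a Matrigel-coated silicone (PDMS) plate, then 48 h in N2B27 medium with SB431542 and LDN, inhibitors of TGF-beta and BMP receptors (dual SMAD inhibition). In the concave group (3 libraries) and the convex group (3 libraries) the plate was then bent for 24 h, and in the flat group (3 libraries) it was left flat for the same 24 h, with both inhibitors in every group. All groups are a single line, and whether libraries of 1 shape stem from separate cultures is not in the labels. A p-value here therefore measures how these libraries spread, which can be technical in part. The libraries held 49420082 to 64763412 counts each.

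These genes are the ones that supply new nucleosomes when DNA is copied, and they are switched on together in S phase. Their main mRNAs are the best-known exception to polyadenylation in animal cells: they end just after a short stem-loop, which the protein SLBP binds, and the end is cut with the help of the U7 small nuclear ribonucleoprotein. Several of the genes can also make longer, polyadenylated mRNAs, which are known from differentiated and non-dividing cells. The libraries were made from RNA purified on poly-T beads, a step that recovers untailed mRNA poorly, and the counts cannot tell tailed mRNA from untailed mRNA that was carried along.

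The stem-loop is shown for 8 genes named below, because it marks where the untailed mRNA ends. H2BC12, H1-2 and H2BC11, which are among the most counted genes, have none in their v29 transcripts. For H2BC12 and H1-2 v29 stops at the end of the coding sequence, as does the unspliced transcript of H2BC11. A stem-loop beyond that point would not be seen there. Each stretch is 26 bases of a GENCODE v29 transcript on the gene's strand, 5′ to 3′, with the 16 bases of the stem-loop in capitals.
H2AC6: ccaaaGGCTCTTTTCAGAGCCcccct
H2AC25: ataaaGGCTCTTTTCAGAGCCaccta
H2BC21: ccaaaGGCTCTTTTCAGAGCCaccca
H2BC4: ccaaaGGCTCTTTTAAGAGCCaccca
H2BC5: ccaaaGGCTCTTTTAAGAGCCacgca
H3C6: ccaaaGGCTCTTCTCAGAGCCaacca
H4C8: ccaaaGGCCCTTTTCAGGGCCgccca
H4C16: caaaaGGCCCTTTTCAGGGCCcccaa
In v29, 27 of the 58 genes have a transcript that holds such a stem-loop. The form shown for H2AC6 was the most frequent, in 13 genes, all of them H2A, H2B or H3. The form of H4C8 was found in 5 genes, all H4, and that of H2BC4 in 4 genes (H2BC4, H2BC5, H2BC7 and H3C8). In each gene the transcript that went farthest ran on past the stem-loop by 6 to 1917 bases, and by more than 100 bases in 21 of the 27 genes. In 18 of the 58 genes a v29 transcript goes past any stem-loop and ends within 45 bases of a poly(A) signal, AATAAA or ATTAAA. For another 25 the annotation holds the coding sequence and nothing after it, and 12 have another end. The annotation release the authors counted with is not given in the sources used here, and reads beyond the end of a gene's model would not have been counted.

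The promoters of 5 genes named below are shown: 3 core histone genes that were higher in one set of libraries, and 2 linker histone genes. Whether promoter sequence bears on the values was not tested. Each is the 200 bases before the RefSeq start (GRCh38.p14), 5′ to 3′ on the gene's strand, and capitals mark ATTTGCAT (the octamer of H2A and H2B promoters), CCAAT and TATAAA, on either strand.
H2AC6, chr6:26123972-26124171, plus strand: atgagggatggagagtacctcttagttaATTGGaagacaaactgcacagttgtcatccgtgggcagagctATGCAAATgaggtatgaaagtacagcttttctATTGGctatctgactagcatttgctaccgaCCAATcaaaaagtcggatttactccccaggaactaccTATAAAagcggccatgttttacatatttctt
H2BC11, chr6:27132796-27132995, minus strand: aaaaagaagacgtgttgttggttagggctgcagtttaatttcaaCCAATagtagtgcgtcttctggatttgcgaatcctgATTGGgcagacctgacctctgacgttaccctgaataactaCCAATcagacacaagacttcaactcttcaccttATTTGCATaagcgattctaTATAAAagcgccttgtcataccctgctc
H2BC12, chr6:27146859-27147058, minus strand: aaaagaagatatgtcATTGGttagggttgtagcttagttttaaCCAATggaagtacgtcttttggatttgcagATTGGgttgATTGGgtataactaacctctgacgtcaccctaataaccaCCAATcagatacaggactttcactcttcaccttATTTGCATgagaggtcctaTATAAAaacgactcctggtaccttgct
H1-2, chr6:26056471-26056670, minus strand: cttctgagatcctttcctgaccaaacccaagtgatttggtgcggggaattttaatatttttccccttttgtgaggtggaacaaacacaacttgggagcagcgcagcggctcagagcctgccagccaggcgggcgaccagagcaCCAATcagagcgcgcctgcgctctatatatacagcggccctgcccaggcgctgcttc
H1-1, chr6:26017788-26017987, minus strand: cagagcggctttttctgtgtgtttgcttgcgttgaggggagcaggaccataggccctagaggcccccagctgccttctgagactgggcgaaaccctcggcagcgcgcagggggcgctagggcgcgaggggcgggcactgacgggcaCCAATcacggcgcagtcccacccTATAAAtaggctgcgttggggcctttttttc
In H2BC11 and H2BC12 the octamer begins 47 and 46 bases before the start. In H2AC6 it begins 130 bases before the start and lies on the opposite strand. That stretch is shared with H2BC4, whose start is 218 bases away and points the other way. Searched over 300 bases (250 before the start and 50 after it) on both strands, ATTTGCAT was found in 12 of 16 H2B and 9 of 14 H2A promoters, in 0 of the 5 H1, 7 H3 and 11 H4 promoters, and in 1.77% of all 35116 RefSeq promoters. CCAAT was found in 44 of the 53 matched promoters, against 34.6% of all promoters, and TATAAA in 35 of 53, against 11.5%. The 3 motifs were searched separately, without regard to overlap. A match describes letters and shows no bound factor.

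Histone mRNAs made up a very small part of these poly(A) libraries, and a handful of genes made up most of that part. All 58 genes together held 0.0141% to 0.0256% of a library's counts. In CPM, counts scaled to library size with TMM factors, their sum was 133.3, 172.4 and 255.7 in concave libraries 1, 2 and 3 and 150.5, 175.4 and 236.2 in convex ones, against 149.9, 174.4 and 265.4 in flat ones. The group means were 187.1 ± 62.5 CPM in concave and 187.4 ± 44.04 CPM in convex cultures, against 196.6 ± 60.9 CPM in flat cultures (SD, n = 3 each). The 3 shapes overlapped fully, and in each of them the library numbered 3 was the highest. In bulk RNA, fewer cells in S phase and less histone mRNA per cell cannot be told apart.

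**Figure D1:**
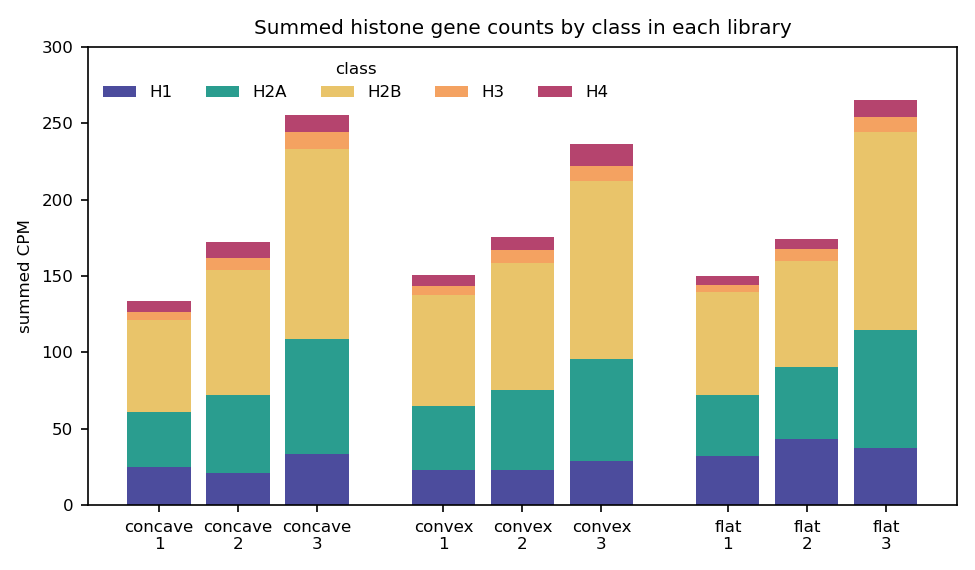
Summed CPM of the 58 histone genes in each of the 9 libraries (concave, convex and flat, libraries 1 to 3), stacked by class. Libraries numbered 3 reach 255.7, 236.2 and 265.4 CPM, and no other library passes 175.4 CPM.

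H2B genes held 46.9% of the histone CPM, H2A 28.5%, H1 15.6%, H4 4.81% and H3 4.14%. H2BC12 alone held 27.4%, H2AC6 21.3% and H1-2 14%, together 62.8%, and the 10 most counted genes held 85.4%. Of the 58 genes 3 averaged more than 10 CPM and 19 more than 1 CPM. Per kilobase of exon annotated in v29, H2BC12 stood at 137 ± 46.5 CPM per kb, H1-2 at 41.7 ± 10.4 and H2AC6 at 24.4 ± 9.15 (SD over 9 libraries). H2AC25 (9.75 ± 1.796), H2BC11 (9.47 ± 3.82) and H2BC5 (6.95 ± 2.18) came next, and each differed from its neighbour among these 3 by less than the larger SD of the pair. Per kilobase of coding sequence H2AC6 came second, at 103.4 CPM per kb, because most of its exons are not coding. In v29 the exons of H2BC12 and H1-2 are coding sequence alone (381 and 642 bases), while those of H2AC6 span 1668 bases. The order of genes therefore depends on the annotation, and the release used for the counts is not known. Which part of each gene the reads cover was not tested.

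Class shares differed between libraries. H2B held 39.7% to 49.2% of the histone CPM of a library and H2A 26.7% to 29.9%, H3 3.22% to 4.698% and H4 3.69% to 6.12%. H1 held 12.1% to 24.96%, the highest in flat 2. In the v29 transcripts, 38 of the genes had no stretch of 100 bases in common with another gene, and 17 had some. Of the stretches of H2BC12 71.6% were its own. The rest were shared with H2BC12L, a near copy that held 47 counts and is not among the 58, or with ENSG00000274559. The 8 genes below 50% were the pairs H2AC13 and H2AC14, H4C11 and H4C12, and H4C14 and H4C15, with H2AC17 and H3C13. H2AC17 shared stretches with H3C12, and 63.5% of those of H3C12 were its own. Reads of these genes can be lost or given to the copy, and their values are uncertain.

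Of the 58 genes 44 passed the filter on low counts and were tested within a fit of 23075 genes: all 5 H1, 9 H2A, 15 H2B, 7 H3 and 8 H4 genes. The other 14 (H2AC4, H2AC12, H2AC17, H2AC18, H2AC19, H2AC21, H2BC14, H3C11, H3C13, H4C1, H4C2, H4C6, H4C14 and H4C15) held 21 to 57 counts in all and averaged at most 0.104 CPM. A gene high in only some libraries can pass such a filter through them, so counts over the 44 describe those genes and not all 58.

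The first question of the design was what bending the plate does, and for single histone genes no difference passed the test. Concave against flat, 0 of the 44 genes were called at an adjusted p under 0.05 (edgeR quasi-likelihood), as were 0% of all genes. At an unadjusted p under 0.05 there were 3 (6.82%), all lower (2.56% of all genes) and 0 higher (1.98%), where 4.54% of all genes passed. Fold changes were above 0 for 23 of the 44 (52.3%, against 51.6% of all genes). Convex against flat, 0 genes were called (0% of all genes) and 3 passed unadjusted, all lower (5.22% of all genes), against 9.25% of all genes. Again 23 fold changes were above 0 (52.3%, against 50.8% of all genes). Concave against convex, 0 were called (0% of all genes) and 0 passed unadjusted, against 0.282%. Of these fold changes 24 were above 0 (49.3% of all genes) and 20 below (50.7% of all genes). The F test among the 3 shapes called 0 of the 44 and 0% of all genes (3 and 3.89% with no adjustment). Neither DESeq2 nor limma voom called any of the 44 genes in these comparisons. Both comparisons with flat use the same 3 flat libraries. The median log2 fold change of the 44 genes was 0.01 concave against flat and 0.03 convex against flat, beside 0.01 and 0.01 over all genes. It was 0.01 concave against convex, beside -0.0033 over all genes.

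**Figure D2:**
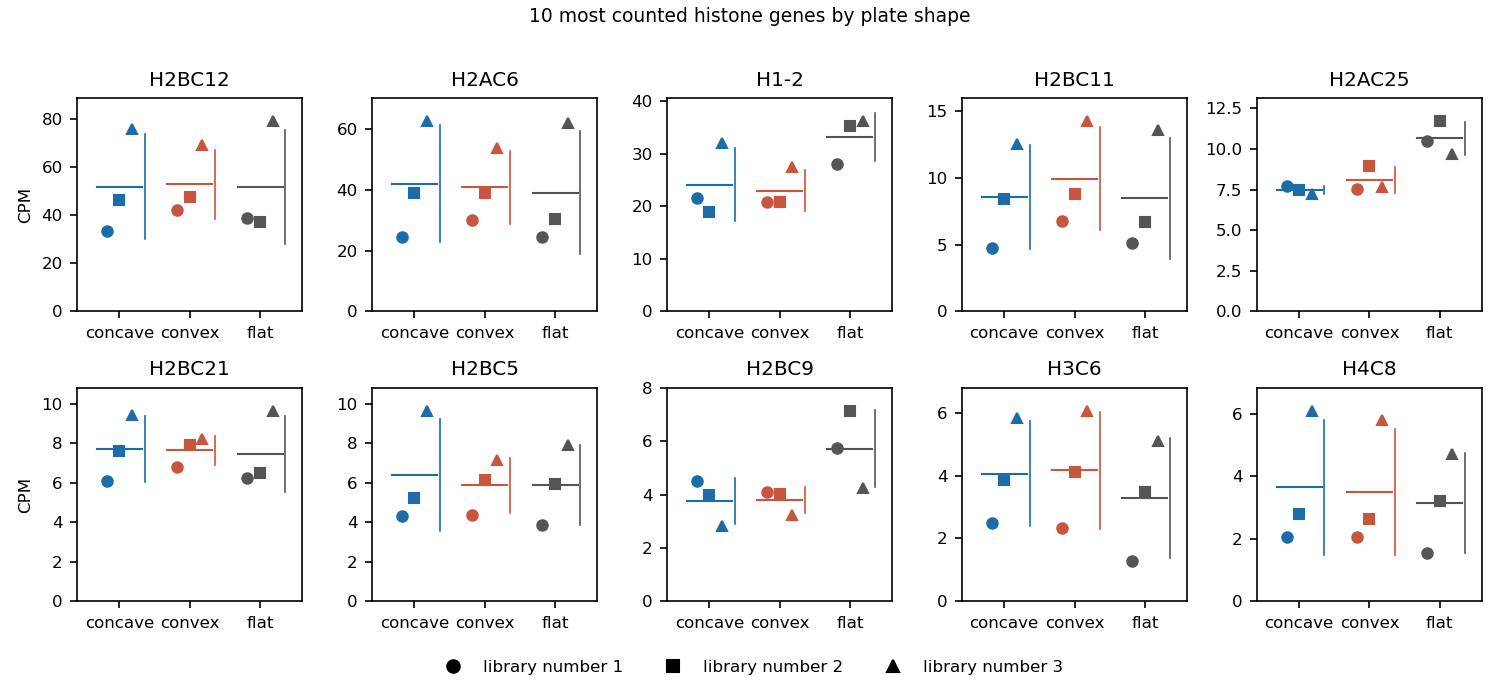
CPM of the 10 most counted histone genes by plate shape; points are libraries (circle number 1, square number 2, triangle number 3), horizontal bars are means and vertical lines ± 1 SD, n = 3 each. The triangle is the highest point of every shape for H2BC12 and H2AC6, and the curved groups lie below flat for H2AC25.

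Of the histone classes the linker histones stood lowest on bent plates, though none was called. H1 binds the DNA between nucleosomes and compacts the fiber. All 5 H1 genes had a fold change below 0 in both comparisons, with medians of -1.06 (concave against flat) and -1.13 (convex against flat) on the log2 scale. Summed, they stood at 24.6, 20.8 and 33.3 CPM in concave libraries 1, 2 and 3 and at 23.2, 22.9 and 28.98 in convex ones, against 32.1, 43.5 and 37.7 in flat ones. Every convex library was below every flat one, and concave 3 was above flat 1. The size of both medians rests in part on flat 2, since without it they were -0.41 and -0.49. With a correction for transcript length they were -0.85 and -0.89. Tested RNAs without a poly(A) tail also had medians below 0 on bent plates, as given further below.

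H1-2 (ENSG00000187837, chr6:26055787-26056428), which holds most of the H1 counts, had 21.5, 18.8 and 31.9 CPM in concave libraries 1, 2 and 3 and 20.8, 20.7 and 27.4 in convex ones, against 28, 35.3 and 36.2 in flat ones. All convex libraries were below all flat ones, and concave 3 was not. Its log2 fold change was -0.46 ± 0.23 (SE) concave against flat and -0.53 ± 0.23 convex against flat (edgeR adjusted p = 0.841 and 0.513). Within each number both bent libraries were below the flat one, by 0.38, 0.91 and 0.18 (concave) and 0.43, 0.77 and 0.40 (convex) on the log2 scale for numbers 1, 2 and 3. H1-5 (ENSG00000184357, chr6:27866849-27867529) had 0.175, 0.306 and 0.269 CPM in concave libraries 1, 2 and 3 and 0.147, 0.201 and 0.141 in convex ones, against 0.773, 0.505 and 0.332 in flat ones. Its 3 highest libraries were the flat ones. It had the smallest p of the genes that were lower on convex plates (log2 fold change -1.70 ± 0.48, edgeR adjusted p = 0.513), and its level was below 1 CPM in every library.

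The other 3 H1 genes were high in flat 2 above all. H1-1 had 1.34, 0.644 and 0.2898 CPM in concave libraries 1, 2 and 3 and 0.956, 0.883 and 0.317 in convex ones, against 1.24, 3.26 and 0.471 in flat ones. H1-4 had 1.04, 0.6897 and 0.621 CPM in concave libraries 1, 2 and 3 and 0.794, 0.945 and 0.774 in convex ones, against 1.17, 3.28 and 0.401 in flat ones. H1-3 had 0.554, 0.322 and 0.207 CPM in concave libraries 1, 2 and 3 and 0.5, 0.186 and 0.352 in convex ones, against 0.876, 1.16 and 0.262 in flat ones. Flat 3 was below at least 1 library of each bent group for all 3 genes, so the groups overlapped.

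**Figure D3:**
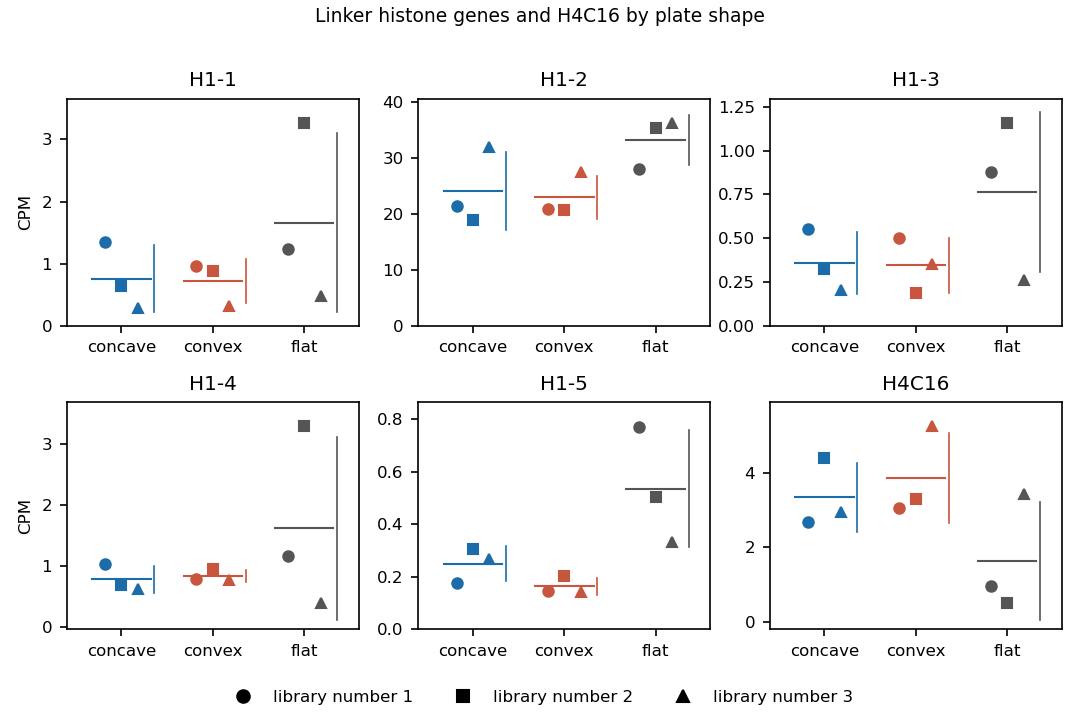
CPM of the 5 linker histone genes and of H4C16 by plate shape; points are libraries (circle number 1, square number 2, triangle number 3), horizontal bars are means and vertical lines ± 1 SD, n = 3 each. H1-2 and H1-5 are lowest on bent plates, and H1-1 and H1-4 reach over 3 CPM in flat 2 alone.

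Among the core histone genes that were lower than flat, 2 H2A genes had the smallest p in both comparisons. H2AC25 (ENSG00000181218, chr1:228456979-228457873), a gene of the 1q42 cluster, had 7.705, 7.45 and 7.22 CPM in concave libraries 1, 2 and 3 and 7.54, 8.98 and 7.69 in convex ones, against 10.5, 11.7 and 9.72 in flat ones. All bent libraries were below all flat ones. It had the smallest p of the genes that were lower on concave plates (log2 fold change -0.51 ± 0.19, edgeR adjusted p = 0.841; -0.40 ± 0.19 and adjusted p = 0.513 for convex). H2AC20, of the 1q21 cluster, had 0.744, 0.567 and 0.869 CPM in concave libraries 1, 2 and 3 and 0.529, 0.666 and 0.704 in convex ones, against 1.13, 2.02 and 0.89 in flat ones, and again no bent library reached a flat one. In v29, 82.8% of its stretches of 100 bases were its own, the rest being shared with HIST2H2AA3 and HIST2H2AA4. Over the 44 genes, all concave libraries were below all flat ones for 3 (H1-5, H2AC20 and H2AC25; 6.82%, against 2.96% of all genes) and above them for 0 (3.78% of all genes). All convex libraries were below for 5 (H1-2, H2BC9 and the same 3; 11.4%, against 7.76%) and above for 1 (H4C12; 2.27%, against 8.91%). In v29, 0% of the stretches of H4C12 were its own, all being shared with H4C11, so its values are uncertain.

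H4C16 (ENSG00000197837, chr12:14767999-14771131), a lone H4 gene on the short arm of chromosome 12, had the smallest p of the genes that were higher on either bent plate. It had 2.68, 4.399 and 2.96 CPM in concave libraries 1, 2 and 3 and 3.06, 3.299 and 5.28 in convex ones, against 0.961, 0.505 and 3.44 in flat ones. Flat 1 and flat 2 were the lowest of the 9 libraries, and flat 3 lay among the bent ones. The log2 fold change was 1.03 ± 0.59 for concave and 1.24 ± 0.59 for convex against flat (edgeR adjusted p = 0.841 and 0.513). Without flat 2 it was 0.61 and 0.81, and without flat 3 it was 2.18 and 2.37. Concave against convex, the smallest p in each direction were those of H3C1 (higher, log2 fold change 0.48) and H4C4 (lower, -0.80), both with an edgeR adjusted p of 0.9999. H3C1 had 0.584, 0.674 and 0.869 CPM in concave libraries 1, 2 and 3 and 0.544, 0.496 and 0.475 in convex ones, against 0.429, 0.758 and 0.506 in flat ones. H4C4 had 0.219, 0.245 and 0.228 CPM in concave libraries 1, 2 and 3 and 0.235, 0.434 and 0.545 in convex ones, against 0.292, 0.189 and 0.524 in flat ones. Both genes stayed below 1 CPM in every library. All concave libraries were above all convex ones for H3C1 (the 1 such gene of the 44, 2.27%, against 1.49% of all genes), and the groups overlapped for H4C4.

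The titles number the libraries of each shape 1 to 3 and histone genes were called among these numbers, where none was among the shapes. An F test among the numbers, with shape in the model, called 7 of the 44 genes (15.9%, against 11.8% of all genes): H2AC6, H2BC4, H2BC5, H2BC11, H2BC12, H3C6 and H4C8. The libraries numbered 3 were set apart in earlier work on these data after they were seen to differ, so no p of the comparison of number 3 with numbers 1 and 2 allows for that choice, and the labels do not say what a number marks. Number 3 against numbers 1 and 2, 12 of the 44 genes were called (27.3%, against 17.9% of all genes). Of these 11 were higher (25% of the 44, against 8.79% of all genes) and 1 was lower (2.27%, against 9.14%). Fold changes were above 0 for 30 of the 44 (50.9% of all genes) and below 0 for 14 (49.1% of all genes). The median log2 fold change was 0.42 over the 44 genes and 0.01 over all genes. All 3 libraries numbered 3 were above the other 6 for 12 genes (27.3%, against 11.7% of all genes) and below them for 1 (2.27%, against 12.5%). Number 2 against number 1, 0 genes were called (0% of all genes; 9 at an unadjusted p under 0.05, 20.5% against 8.54% of all genes) by edgeR, with 1 by DESeq2 and 0 by limma voom. Of the 9, 8 were higher (3.88% of all genes) and 1 lower (4.66% of all genes). Fold changes were below 0 for 10 of the 44, against 52.1% of all genes, and the median log2 fold change was 0.18.

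**Figure D4:**
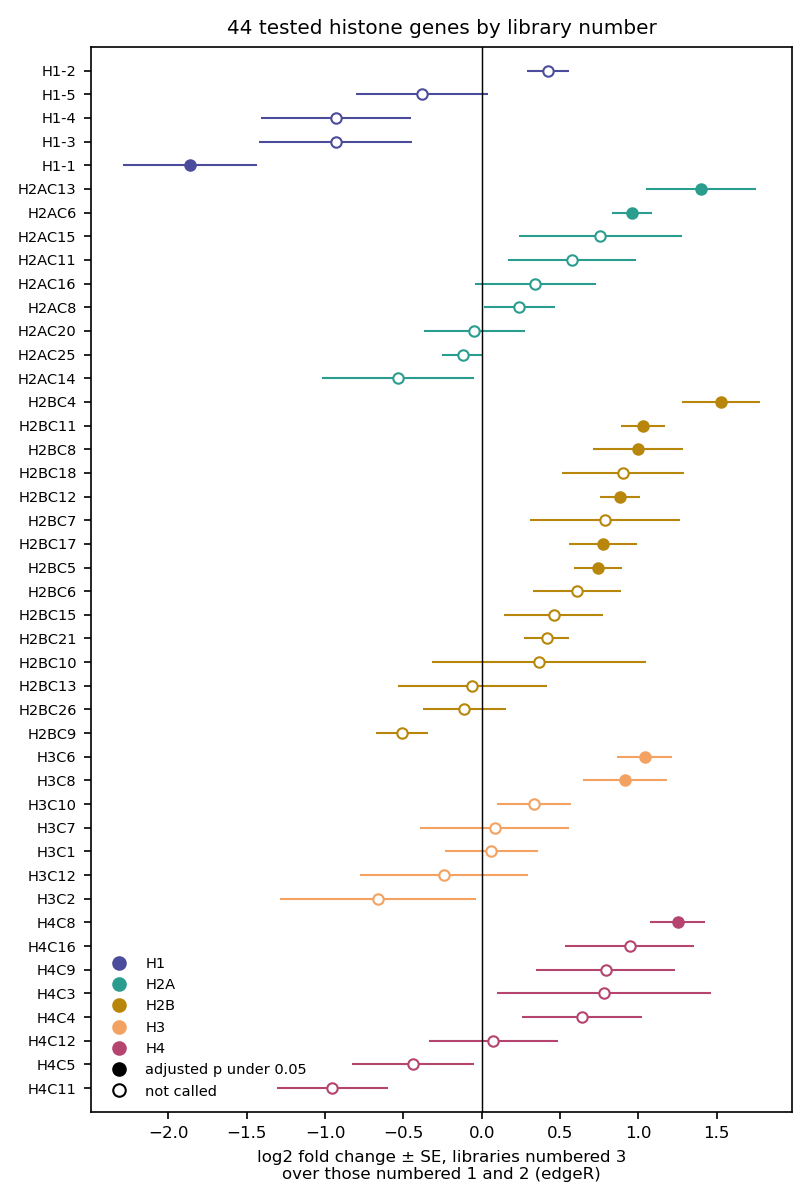
Log2 fold change with its standard error of the 44 tested histone genes, libraries numbered 3 (n = 3) over those numbered 1 and 2 (n = 6), from edgeR with shape in the model; filled points passed an adjusted p of 0.05. Of 44 genes 30 lie right of 0, and H1-1 is the 1 filled point left of it.

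H2B genes supplied 6 of the 11 that were higher. H2BC12 (ENSG00000197903, chr6:27146418-27146798), the most counted gene, had 76.1, 69.1 and 79.2 CPM in the concave, convex and flat libraries numbered 3, against 33.4, 42 and 38.8 in those numbered 1 and 46.4, 47.5 and 37.2 in those numbered 2. The libraries numbered 3 were the 3 highest of all, whatever the shape (log2 fold change 0.88 ± 0.13 (SE), edgeR adjusted p = 0.00273). H2BC11 (ENSG00000124635, chr6:27125897-27132750) had 12.5, 14.3 and 13.6 CPM in the libraries numbered 3, against 4.73, 6.78 and 5.099 in those numbered 1 and 8.399, 8.798 and 6.73 in those numbered 2, shapes in the same order. It too was highest in the 3 libraries numbered 3 (log2 fold change 1.03 ± 0.14 (SE), edgeR adjusted p = 0.0019), by 1.91, 1.83 and 2.30 times the mean of the other 2 libraries of a shape. H2BC5 (ENSG00000158373, chr6:26158146-26171349) had 9.64, 7.14 and 7.89 CPM in the libraries numbered 3, against 4.305, 4.38 and 3.83 in those numbered 1 and 5.24, 6.12 and 5.93 in those numbered 2. It rose least of the H2B genes called (log2 fold change 0.74 ± 0.16 (SE), edgeR adjusted p = 0.0125).

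H2BC4 (ENSG00000180596, chr6:26114873-26123926) and H2AC6 (ENSG00000180573, chr6:26124145-26139116) point away from each other on either side of the octamer printed above, and both rose. H2AC6 had 62.7, 53.7 and 62.2 CPM in the concave, convex and flat libraries numbered 3, against 24.6, 30.03 and 24.5 in those numbered 1 and 38.8, 38.9 and 30.3 in those numbered 2. The libraries numbered 3 were again the 3 highest (log2 fold change 0.96 ± 0.13 (SE), edgeR adjusted p = 0.00189). H2BC4 had 5.96, 5.31 and 5.65 CPM in the libraries numbered 3, against 2.13, 2.04 and 1.87 in those numbered 1 and 2.61, 2.49 and 0.926 in those numbered 2. It had the largest fold change of the genes that were higher (log2 fold change 1.53 ± 0.25 (SE), edgeR adjusted p = 0.00434), and flat 2 was its lowest library. Of the 12 head-to-head pairs whose starts lie within 500 bases, this was the 1 pair in which both genes were called.

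In 7 pairs both partners were tested. In 3 of these both fold changes were above 0, and in 3 the partners had opposite signs. Of the 44 tested genes 30 had a fold change above 0. Whether partners go together more than other genes was not tested. Partners could differ widely. H2AC11, which shares its promoter stretch with H2BC11, had a log2 fold change of 0.58 and was not called, and H2AC12, across from H2BC12, averaged 0.0921 CPM. H2BC8 rose (log2 fold change 1.00 ± 0.29 (SE), edgeR adjusted p = 0.0423), with 1.88, 1.83 and 1.57 CPM in the libraries numbered 3, against 0.657, 1 and 1.01 in those numbered 1 and 1.09, 1.08 and 0.463 in those numbered 2. Its partner H2AC8 had a log2 fold change of 0.24 and was not called. H2BC17 rose as well (log2 fold change 0.77 ± 0.22 (SE), edgeR adjusted p = 0.0397), with 1.64, 1.85 and 1.59 CPM in the libraries numbered 3, against 0.803, 0.971 and 0.979 in those numbered 1 and 1.29, 0.976 and 0.926 in those numbered 2.

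H2AC13 (ENSG00000196747, chr6:27808199-27808701) was the other H2A gene that rose (log2 fold change 1.40 ± 0.35 (SE), edgeR adjusted p = 0.0255). It had 0.642, 0.616 and 0.646 CPM in the libraries numbered 3, against 0.146, 0.235 and 0.326 in those numbered 1 and 0.306, 0.232 and 0.189 in those numbered 2. Its level was below 1 CPM throughout, and 42.3% of its stretches were its own, the rest being shared with H2AC14, which had a log2 fold change of -0.54 and was not called.

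Of the H3 genes H3C6 and H3C8 rose, and of the H4 genes H4C8. H3C6 (ENSG00000274750, chr6:26224199-26227473) had 5.84, 6.07 and 5.096 CPM in the libraries numbered 3, against 2.495, 2.32 and 1.29 in those numbered 1 and 3.85, 4.12 and 3.49 in those numbered 2. Number 2 lay between numbers 1 and 3 in each shape (log2 fold change 1.04 ± 0.18 (SE), edgeR adjusted p = 0.00536). H3C8 had 1.04, 1.07 and 1.59 CPM in the libraries numbered 3, against 0.467, 0.426 and 0.601 in those numbered 1 and 0.858, 0.991 and 0.652 in those numbered 2, and convex 2 stood close to the libraries numbered 3 (log2 fold change 0.91 ± 0.27 (SE), edgeR adjusted p = 0.0455). H4C8 (ENSG00000158406, chr6:26277609-26285638), a gene of 6p22 with none of the 3 motifs in its promoter window, had 6.11, 5.804 and 4.71 CPM in the libraries numbered 3, against 2.04, 2.04 and 1.53 in those numbered 1 and 2.79, 2.63 and 3.198 in those numbered 2. The libraries numbered 3 were the 3 highest (log2 fold change 1.25 ± 0.17 (SE), edgeR adjusted p = 0.00222). H4C16 reached a log2 fold change of 0.94 ± 0.41 and was not called (edgeR adjusted p = 0.151).

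H1-1 (ENSG00000124610, chr6:26017085-26017732) was the 1 gene called lower. It had 0.2898, 0.317 and 0.471 CPM in the libraries numbered 3, against 1.34, 0.956 and 1.24 in those numbered 1 and 0.644, 0.883 and 3.26 in those numbered 2. Every library numbered 3 was below the other 6 (log2 fold change -1.86 ± 0.43 (SE), edgeR adjusted p = 0.0182). Of the 5 linker histone genes 4 had a fold change below 0, with a median of -0.93 on the log2 scale. H1-2 was the exception, at 31.9, 27.4 and 36.2 CPM in the libraries numbered 3, against 21.5, 20.8 and 28 in those numbered 1 and 18.8, 20.7 and 35.3 in those numbered 2 (log2 fold change 0.42 ± 0.13, edgeR adjusted p = 0.059). Flat 2 came close to flat 3 for H1-2, and without flat 2 its adjusted p was 0.0064. The genes of smallest p after H1-1 in this direction were H2BC9 and H4C11. H2BC9 had 2.82, 3.22 and 4.26 CPM in the libraries numbered 3, against 4.51, 4.12 and 5.75 in those numbered 1 and 3.97, 4.01 and 7.15 in those numbered 2 (log2 fold change -0.51 ± 0.17, edgeR adjusted p = 0.0647). H4C11 had 0.269, 0.229 and 0.366 CPM in the libraries numbered 3, against 0.409, 0.279 and 0.773 in those numbered 1 and 0.368, 0.604 and 1.18 in those numbered 2 (log2 fold change -0.95 ± 0.35, edgeR adjusted p = 0.0965). Flat 3 was above concave 2 for H2BC9 and above convex 1 for H4C11, so the ranges overlapped for both. In v29, 22.3% of the stretches of H4C11 were its own, the rest being shared with H4C12. The remaining genes of the 10 most counted, H2BC21 and H2AC25, had log2 fold changes of 0.41 (edgeR adjusted p = 0.0764) and -0.12 (adjusted p = 0.561). H2BC21 had 9.42, 8.196 and 9.65 CPM in the libraries numbered 3, against 6.07, 6.78 and 6.22 in those numbered 1 and 7.602, 7.93 and 6.502 in those numbered 2.

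By class the median log2 fold change of number 3 against numbers 1 and 2 was 0.74 for H2B (12 of 15 above 0), 0.71 for H4 (6 of 8), 0.34 for H2A (6 of 9) and 0.08 for H3 (5 of 7). By the end of the annotated transcripts it was 0.67 for the 16 tested genes with a poly(A) signal past any stem-loop (13 above 0, 7 called higher), and 0.08 for the 16 of which v29 gives the coding sequence alone (10 above 0, 2 called higher and 1 lower). For the 11 with another end it was 0.78 (7 above 0, 2 called higher). The 17 tested genes with the octamer, all H2A or H2B, had a median of 0.61 (14 above 0, 6 called higher). The 25 without it, which include the H1, H3 and H4 genes, had 0.08 (15 above 0, 5 called higher and 1 lower). The octamer split thus follows class in part, and it leaves out tested genes with no matched promoter. Leaving out 1 library moved these medians between 0.50 and 0.77 for H2B, 0.32 and 0.90 for H4, 0.24 and 0.61 for H2A, and -0.01 and 0.22 for H3. It moved them between 0.63 and 0.79 for the genes with a poly(A) signal and between 0.02 and 0.31 for those with coding sequence alone. Beside the counts of each split, 50.9% of all genes were above 0, 8.79% were called higher and 9.14% lower. These splits share genes, were not tested against each other, and follow what the annotation holds.

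Part of these calls did not hold when 1 library was left out, and the reason was not tested. The count of 12 genes dropped to 6 when concave 1 was left out, and also when concave 3 or convex 3 was. It was 7 when convex 1 or flat 3 was left out. The number of all genes called changed too with the library left out, over the range given further below. H2AC6, H2BC4, H2BC11, H2BC12 and H4C8 were called under each of 15 alternatives. H3C8 was called under 5 of them, H2BC17 under 6, H2BC8 under 8, H2AC13 under 9 and H1-1 under 10. The F test among numbers called 1 histone gene without convex 3 and 12 without flat 2, and 352 and 4999 genes in all.

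Few genes of the machinery that makes and ends histone mRNA were called. Of 24 genes for histone mRNA processing, 17 had a fold change above 0 in number 3 (50.9% of all genes) and 1 was called higher (8.79% of all genes), SLBP, the stem-loop binding protein. SLBP had 77.02, 73.9 and 75.4 CPM in the concave, convex and flat libraries numbered 3, against 48.5, 51.2 and 54.6 in those numbered 1 and 54.6, 58.7 and 73.5 in those numbered 2. The libraries numbered 3 were the highest, with flat 2 just below convex 3 (log2 fold change 0.42 ± 0.11 (SE), edgeR adjusted p = 0.0319). Its call held under 7 of 15 alternatives. WDR33, a reader of the AAUAAA signal, had 150.1, 154 and 147 CPM in the libraries numbered 3, against 107, 113 and 119 in those numbered 1 and 122, 132 and 122 in those numbered 2 (log2 fold change 0.34, edgeR adjusted p = 0.0505). UPF1, a helicase that takes part in histone mRNA decay, had 178, 195 and 188 CPM in the libraries numbered 3, against 134, 152 and 147 in those numbered 1 and 155, 169 and 116 in those numbered 2 (log2 fold change 0.37, adjusted p = 0.0786).

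The U7 subunits LSM10 and LSM11, and ZNF473, which joins U7 to SLBP, had log2 fold changes of 0.09, -0.25 and -0.03, and none was called (edgeR adjusted p of at least 0.299). LSM10 changed sign with library size alone as the scale and under leaving out some libraries. LSM10 had 18.7, 19.4 and 28.2 CPM in concave libraries 1, 2 and 3 and 20.97, 23.4 and 22.6 in convex ones, against 25.9, 41.8 and 25.6 in flat ones. Flat 2 was the highest library, and the shapes overlapped. LSM11 ranged from 8.57 CPM in concave 3 to 15.2 CPM in concave 1, and ZNF473 from 14.5 CPM in flat 2 to 18.7 CPM in convex 2.

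Of 18 genes of the histone locus body and of histone transcription, 14 had a fold change above 0 in number 3 (50.9% of all genes). The median of the 18 was 0.25, and 2 were called higher, where 8.79% of all genes were. CDC25A, a phosphatase that activates cyclin-dependent kinases for S phase entry, had 130, 133 and 130.2 CPM in the libraries numbered 3, against 58.6, 83.9 and 73.6 in those numbered 1 and 90.5, 99.7 and 81.1 in those numbered 2. All libraries numbered 3 were above all others (log2 fold change 0.71 ± 0.12 (SE), edgeR adjusted p = 0.00521). CCNE1, the cyclin E whose kinase phosphorylates NPAT, had 52.7, 42.6 and 49.8 CPM in the libraries numbered 3, against 27.4, 34.2 and 38.4 in those numbered 1 and 32.8, 35.8 and 45.1 in those numbered 2 (log2 fold change 0.46 ± 0.13 (SE), edgeR adjusted p = 0.0429). Its range overlapped, since flat 2 was above convex 3, and its call held under 7 of 15 alternatives. CCNE2, the other cyclin E, had 3.91, 5.94 and 5.64 CPM in the libraries numbered 3, against 2.25, 3.02 and 2.44 in those numbered 1 and 4.03, 3.84 and 1.35 in those numbered 2 (log2 fold change 0.92 ± 0.29, edgeR adjusted p = 0.0626).

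NPAT, the coactivator of histone genes in the locus body, had 36.04, 44.3 and 42.1 CPM in the libraries numbered 3, against 37.3, 37.4 and 29.1 in those numbered 1 and 39.9, 38.1 and 17.3 in those numbered 2. CASP8AP2 (FLASH), its partner in the body, had 37.8, 58.7 and 55.5 CPM in the libraries numbered 3, against 50.1, 59.8 and 34.8 in those numbered 1 and 62.7, 55.4 and 18.6 in those numbered 2. Flat 2 was the lowest library for both, and neither was called by number (edgeR adjusted p = 0.265 and 0.646). By shape neither was called (adjusted p = 0.841 and 0.841 concave against flat, 0.546 and 0.513 convex against flat).

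**Figure D5:**
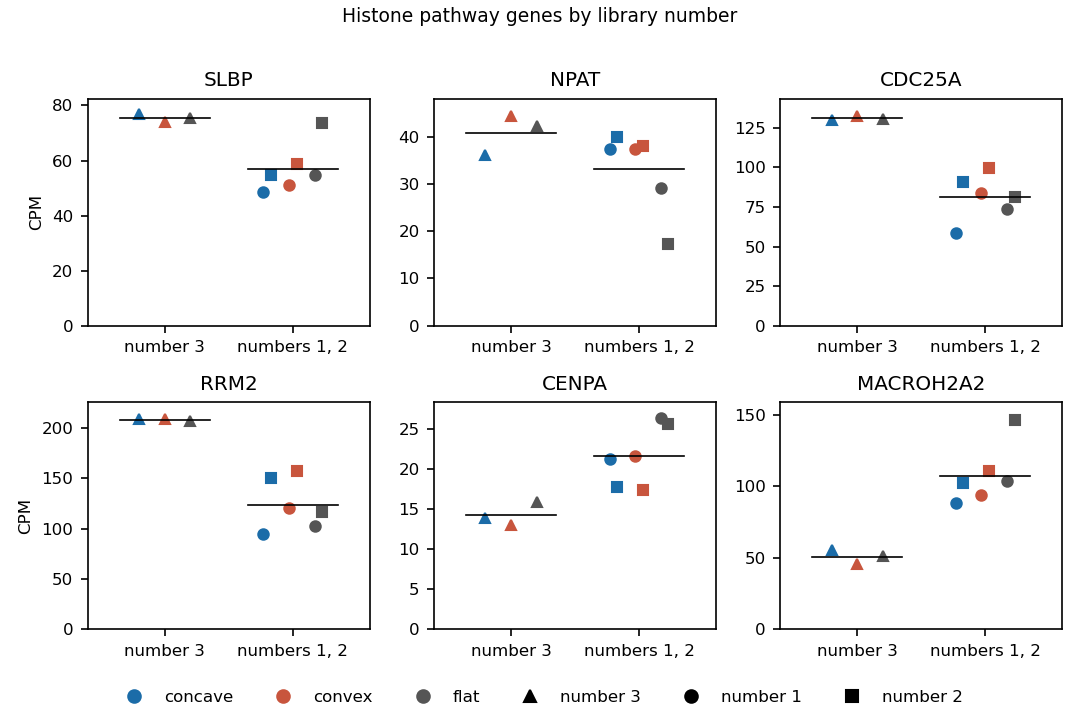
CPM of 6 genes around histone supply in libraries numbered 3 (left, n = 3) and numbered 1 and 2 (right, n = 6); colours give the plate shape, marker shapes the number, and bars the mean. CDC25A and RRM2 are higher and CENPA and MACROH2A2 lower in all 3 libraries numbered 3, and NPAT overlaps.

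Histone chaperones, which carry new histones to DNA, gave no calls. Of 24 genes 21 had a fold change above 0 in number 3 (50.9% of all genes), with a median of 0.14. The test called 0 of them (17.9% of all genes), and 1 passed an unadjusted p under 0.05 (32.5% of all genes). DNAJC9, an H3-H4 co-chaperone, had the smallest p (log2 fold change 0.33 ± 0.13, edgeR adjusted p = 0.118), with 22.4, 21.1 and 22.6 CPM in the libraries numbered 3, against 13.9, 17.7 and 17.4 in those numbered 1 and 19.5, 20.8 and 16.8 in those numbered 2. ASF1B and ASF1A, which hand H3-H4 to the assembly factors, had log2 fold changes of 0.22 and 0.19 (adjusted p = 0.229 and 0.233).

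Of 36 genes of S phase and DNA replication, 32 had a fold change above 0 in number 3, with a median of 0.28, and 4 rose, where 50.9% of all genes had a fold change above 0 and 8.79% were called higher: RRM2, ORC6, ORC1 and SLBP, which is also in the processing list. RRM2, the ribonucleotide reductase subunit that limits nucleotide supply, had 209, 209 and 208 CPM in the libraries numbered 3, against 94.9, 121 and 103 in those numbered 1 and 150.1, 157 and 116 in those numbered 2. The 3 libraries numbered 3 lay close together, above all others (log2 fold change 0.78 ± 0.12 (SE), edgeR adjusted p = 0.00352). ORC6, a subunit of the origin recognition complex, had 100.4, 110.4 and 79.7 CPM in the libraries numbered 3, against 62.9, 76.3 and 59.2 in those numbered 1 and 78.5, 77.8 and 57.6 in those numbered 2 (log2 fold change 0.49 ± 0.11 (SE), edgeR adjusted p = 0.0148), and its call held under 10 of 15 alternatives. Of 28 genes of mitosis 18 had a fold change above 0, the median was 0.07, and 0 were called. At an unadjusted p under 0.05, 2 mitosis genes passed, both lower, where 16.7% of all genes were lower. The smallest p there were those of NUF2, of the kinetochore, and CCNB2, a mitotic cyclin, with log2 fold changes of -0.35 and -0.35 (edgeR adjusted p = 0.0511 and 0.098). DESeq2 and limma voom called NUF2.

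The replacement histones, whose expression is not limited to S phase and whose mRNAs carry poly(A) tails, were mostly lower in number 3. Of 11 genes 8 had a fold change below 0 in number 3, with a median of -0.21, and 2 fell and 1 rose, where 49.1% of all genes had a fold change below 0, 9.14% were called lower and 8.79% higher. MACROH2A2, a large H2A variant of silent chromatin, had 55.2, 45.9 and 51.01 CPM in the concave, convex and flat libraries numbered 3, against 87.95, 93.6 and 104 in those numbered 1 and 102, 110.5 and 146 in those numbered 2 (log2 fold change -1.06 ± 0.13 (SE), edgeR adjusted p = 0.00138). CENPA, the H3 variant of centromeres, had 13.8, 13 and 15.9 CPM in the libraries numbered 3, against 21.2, 21.5 and 26.2 in those numbered 1 and 17.7, 17.4 and 25.6 in those numbered 2 (log2 fold change -0.59 ± 0.12 (SE), edgeR adjusted p = 0.0105), and its call held under 14 of 15 alternatives. Every library numbered 3 was below every other for both genes. MACROH2A1, the related variant, rose (log2 fold change 0.36 ± 0.10 (SE), edgeR adjusted p = 0.0383), although the ranges overlapped and the call held under 5 of 15 alternatives.

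On bent plates 10 of the same 11 replacement histone genes had a fold change below 0 in each comparison with flat, with medians of -0.36 (concave) and -0.38 (convex), and 0 were called (2 and 3 at an unadjusted p under 0.05, all lower). Of all genes 48.4% (concave) and 49.2% (convex) had a fold change below 0, and 2.56% and 5.22% were lower at an unadjusted p under 0.05. Leaving out 1 library moved the medians between -0.53 and -0.18 (concave) and between -0.60 and -0.26 (convex). H1-10, a linker variant, had 128, 104 and 101 CPM in concave libraries 1, 2 and 3 and 121, 132 and 73.2 in convex ones, against 166, 306 and 104 in flat ones. H2AJ, an H2A variant, had 15.4, 15.8 and 12.6 CPM in concave libraries 1, 2 and 3 and 13.8, 16.1 and 11.6 in convex ones, against 20.98, 34.7 and 14.8 in flat ones. Flat 2 was the highest library for both.

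Other features of the libraries moved with the number too, and their part in the histone values was not tested. Over all genes 8.79% were called higher in number 3 and 9.14% lower. Of 12 pluripotency markers 8 rose and 1 fell (SOX2, which is also an early neuroectoderm marker) in number 3, with a summed level of 5544 to 5678 CPM in number 3 and 3963 to 4437 CPM in numbers 1 and 2. Of 13 early neuroectoderm markers 9 fell, summing to 2178 to 2478 CPM in number 3 and 2789 to 3507 CPM in numbers 1 and 2. Of 12 markers of non-neural ectoderm 8 were tested and 5 rose, summing to 714.6 to 807.7 CPM in number 3 and 443.6 to 847.3 CPM in numbers 1 and 2, with TFAP2A, TFAP2B and TP63 under 0.1 CPM on average. Of 11 neuron markers 8 were tested, 1 rose and 3 fell, with sums of 178.2 to 214.1 CPM in number 3 and 188.9 to 260.7 CPM in numbers 1 and 2 and with NEUROD1, NEUROG1 and NEUROG2 under 0.1 CPM. Of 11 mesendoderm markers 6 were tested, 2 rose and 1 fell, and their sum was at most 13.4 CPM in any library, with EOMES, SOX17, GATA4 and GATA6 under 0.1 CPM. Of 13 fibroblast, endothelial and blood markers 7 were tested, 3 rose and 4 fell, with sums of 1268 to 1729 CPM in number 3 and 844.6 to 1523 CPM in numbers 1 and 2, and COL3A1, DCN, LUM, PTPRC, HBG1 and HBE1 were under 0.1 CPM.

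RNAs that carry no poly(A) tail were also counted, most of them barely: 26 of the 34 listed averaged under 0.1 CPM. All 34 (small nuclear, small Cajal body, vault, Y and similar RNAs) summed to 9.94, 9.74 and 8.03 CPM in the concave, convex and flat libraries numbered 3, against 6.83, 6.41 and 19.5 in those numbered 1 and 11.4, 6.86 and 9.13 in those numbered 2. Flat 1 was the highest, and the libraries numbered 3 lay within the range of the others. Of the 34, 11 had no count and 6 were tested. In number 3, 0 of the 6 were called (17.9% of all genes), and 3 passed an unadjusted p under 0.05 (32.5% of all genes). Against flat, 4 of the 6 had a fold change below 0 in each bent group (48.4% of all genes concave, 49.2% convex). Their medians were -0.63 (concave) and -1.07 (convex), beside -1.06 and -1.13 for the H1 genes. The test called 0 of the 6 (0% of all genes). At an unadjusted p under 0.05, 1 (concave) and 2 (convex) were lower (2.56% and 5.22% of all genes). Whether untailed RNA bears on the H1 values was not tested. Mitochondrial genes held 10.5%, 9.33% and 7.63% of counts in the concave, convex and flat libraries numbered 3, and 5.7% (flat 2) to 8% (convex 2) in the others.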

How the data were processed

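The authors deposited raw counts per gene for 9 libraries, made from mRNA bound to poly-T beads with a stranded kit, per the labels' protocols. HISAT2, featureCounts and GRCh38 are named in the submitters' processing notes; their versions, the gene annotation and how strand was handled were not given in the sources used here. Members and gene lists were chosen with earlier results of these data known.

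Members were matched by symbol and kept at 10 counts or more in all. Of 62710 IDs, 62639 had a name and 58274 were in GENCODE v29. Of the 58 members 53 matched a RefSeq promoter (GRCh38.p14). CPM used TMM-scaled library sizes. Tests were edgeR 4.0.16 quasi-likelihood (R 4.3.3) on the counts, with filterByExpr, a shared spread over all 9 libraries and Benjamini-Hochberg adjustment over 23075 genes, called at an adjusted p under 0.05. The number comparisons had plate shape in the model. Both fits were tested on simulated data. The outcome is not given here, and the calls do not rest on it. Alternatives were DESeq2 1.42.0, limma voom 3.58.1, other scalings and filters, a lowess correction for transcript length (span 0.3), a replicate block, and leaving out each library.

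Genes named with all values were the 10 of highest mean CPM, those called, and those of smallest p in each comparison and list, plus SLBP, NPAT, CASP8AP2, LSM10, LSM11 and ZNF473. H1-3, H1-4, H2AC20, H1-10 and H2AJ were added after their values were seen. Some list genes are not reported here and were left out of the counts. The shapes share replicate numbers in the titles. Deviations of same-numbered libraries from the mean of their shape correlated between convex and flat (r = 0.509, 0.493 and 0.701 for numbers 1, 2 and 3). Between concave and convex r was 0.709, 0.414 and 0.71. Differently numbered libraries were not compared in this way, so these values do not show that the numbers pair. Between replicates of a shape, counts differed by far more than sampling noise (chi-square over its degrees of freedom 19.7 to 284.6).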

Additional observations from a re-analysis of the deposited data

How the results depend on the processing

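Number 3 against numbers 1 and 2 gave between 6 and 13 called histone genes when 1 library was left out, 1077 to 5575 genes in all and a member median of 0.33 to 0.61 on the log2 scale; with library size alone as the scale the median was 0.32. Among replicate numbers the counts were 1 to 12 histone genes and 352 to 4999 genes when 1 library was left out. Among replicate numbers, no low-count filter gave 11 histone genes of 4087 genes called, DESeq2 gave 11 of 4465, and the length correction gave 11. Number 2 against number 1 gave 1 gene called with DESeq2 size factors, 108 without a filter, 147 with DESeq2 (1 of them a histone gene) and 2 with the length correction; leaving out 1 library gave 0 to 11 genes and a median of 0.11 to 0.33. In the shape comparisons 0 histone genes were called under any alternative run, and DESeq2 called 1 gene, convex against flat. Leaving out 1 library moved the member median between -0.23 and 0.24 concave against flat, -0.21 and 0.24 convex against flat, and -0.12 and 0.21 concave against convex. The cause of these moves was not tested. With the replicate block the member medians were 0.02, 0.05 and -0.01, and the block changed no call. Concave against flat, same-numbered libraries correlated at 0.493, 0.0339 and 0.397, and for no 2 shapes are the numbers shown to pair.

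For number 3 against numbers 1 and 2, LSM10 was -0.0191 and H3C1 -0.044 with library size alone. Leaving out 1 library moved H3C1 between -0.19 and 0.19, LSM10 between -0.20 and 0.28, CASP8AP2 between -0.29 and 0.56 and ZNF473 between -0.13 and 0.0086. Genes below 1 CPM rest on few counts, which limits what these libraries can show of them.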

Other observations

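Genes outside the histones whose CPM followed the histone genes most closely were found by Pearson's r of log2 CPM over the 9 libraries among 23031 genes. For the summed histone CPM they were HSPD1, a mitochondrial chaperonin (r = 0.992), RCC1, the exchange factor of Ran (0.991), EIF3J, a translation initiation factor (0.989), ETF1, a release factor of translation (0.987), and CNOT9, a subunit of the CCR4-NOT complex (0.986). For H1-2 they were SAP18 (r = 0.976), ACAA2 (0.971), C6orf62 (0.966), ATP5F1B (0.959) and GDI2 (0.959). The libraries share their replicate numbers, plate shapes and total counts in these values, and the best of 23031 genes are high by choice.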
